A study of Homo sapiens and Mus musculus with 33 samples.

Results

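This comparison sets mouse naive T cells collected after 8 h of stimulation against the same kind of cells collected after 6 h. Its members were chosen by label, as the 2 single-cell libraries of those times, and they hold 2938 of the 11334 cells of the 6 naive T libraries and of the 30019 cells of the series, which has 33 samples. The 8 h library holds 973 cells and the 6 h library 1965 cells. The study measured new and total RNA in single cells with metabolic labelling by 4-thiouridine (4sU), a nucleoside that cells build into RNA while it is being made, in human cell lines and in mouse T cells. Both libraries come from T lymphocytes of mouse lymph nodes, labelled with 4sU and stimulated with antibodies to CD3 and CD28, which engage the T cell receptor complex and its main costimulatory receptor. Strain, age, number of animals and the duration of labelling are not given for them in the sources used here. The values are unique molecular identifiers (UMIs, counted RNA molecules) at the 3′ end of transcripts, summed over all cells of a library and given as counts per 1000000 UMIs (CPM), and they cover old and new RNA together. There is 1 library per time, so a difference between the times cannot be told apart from a difference between the libraries, no test was possible, and every interval below covers counting error only.

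T cell activation runs in waves. Receptor signals first switch on immediate early transcription factors of the EGR, NR4A and AP-1 families, whose RNAs are short-lived, and the NF-kappaB and NFAT factors with their inhibitors. Costimulatory receptors, cytokine receptors and chemokines follow, then glycolysis, amino acid uptake, protein synthesis and, before the first division, DNA replication genes. In CD8 T cells, granzymes and perforin are made as the cell becomes cytotoxic.

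The 8 h library held 710533 UMIs and the 6 h library 1271850 UMIs, with a median of 659 UMIs per cell at 8 h and 574 at 6 h. A single UMI is worth 1.41 CPM at 8 h and 0.786 CPM at 6 h. No cell barcode was shared between the pair. Ribosomal protein genes took 45.1% of UMIs at 8 h and 46.5% at 6 h, and mitochondrially encoded genes took 0.783% at 8 h and 0.787% at 6 h. For the label T lymphocytes, the 16 T cell markers were checked and summed to 5320 CPM at 8 h and 5399 CPM at 6 h. The 18 B cell markers summed to 90.1 CPM at 8 h and 63.7 CPM at 6 h, with Cd79b and Ms4a1, which define B cells, at 0 UMIs in both libraries. The 16 myeloid and dendritic markers summed to 128 CPM at 8 h and 111 CPM at 6 h, with Lyz2 and Cd14 at 0 UMIs in both. The 11 natural killer and innate lymphoid markers summed to 574 CPM at 8 h and 662 CPM at 6 h, nearly all of it Nkg7, Prf1 and Klrd1, which CD8 T cells also express, and Ncr1 was at 0 UMIs in both. All 8 erythroid and platelet markers were at 0 UMIs in both libraries. Smaller sums came from plasma cell markers (26.7 CPM at 8 h and 43.2 CPM at 6 h), gamma delta T cell markers (19.7 CPM at 8 h and 12.6 CPM at 6 h) and stromal and endothelial markers (7.04 CPM at 8 h and 11.8 CPM at 6 h). Regulatory T cell markers summed to 373 CPM at 8 h and 558 CPM at 6 h, mostly from Il2ra and Tnfrsf18, which activated T cells also express, and Foxp3, which defines that lineage, had 1 UMI at 8 h and 6 UMIs at 6 h. What these sums add to the differences below was not tested.

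In total 1944 genes had 100 or more UMIs over both libraries, and they carried 89.1% of the UMIs at 8 h and 89.5% at 6 h. Most of them differed little: 90.7% lay within 1.5-fold, with a median log2 ratio (8 h over 6 h) of 0.09, and 62.3% lay above 0 and 37.7% below. At the 2-fold threshold 25 genes were lower at 8 h, which is 1.29% of the genes compared, and 7 were higher, which is 0.360%. With the 6 h library thinned to the 8 h total, which left 1456 genes at 100 UMIs, 16 were lower and 2 higher. At 1.5-fold the counts were 94 genes lower (4.84%) and 87 higher (4.48%). The genes lower at 8 h held between 100 and 1541 UMIs in the pair and included immediate early factors, NF-kappaB regulators, activation receptors and a chemokine. The 7 genes higher at 8 h were all sparse, with 106 to 178 UMIs each. In sums over a library, fewer cells holding an RNA and less of it per cell cannot be told apart. Shares of cells with a UMI are given for the best measured genes. At so few UMIs per cell a share also falls when each cell holds less, so the shares do not separate these either.

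**Figure D1:**
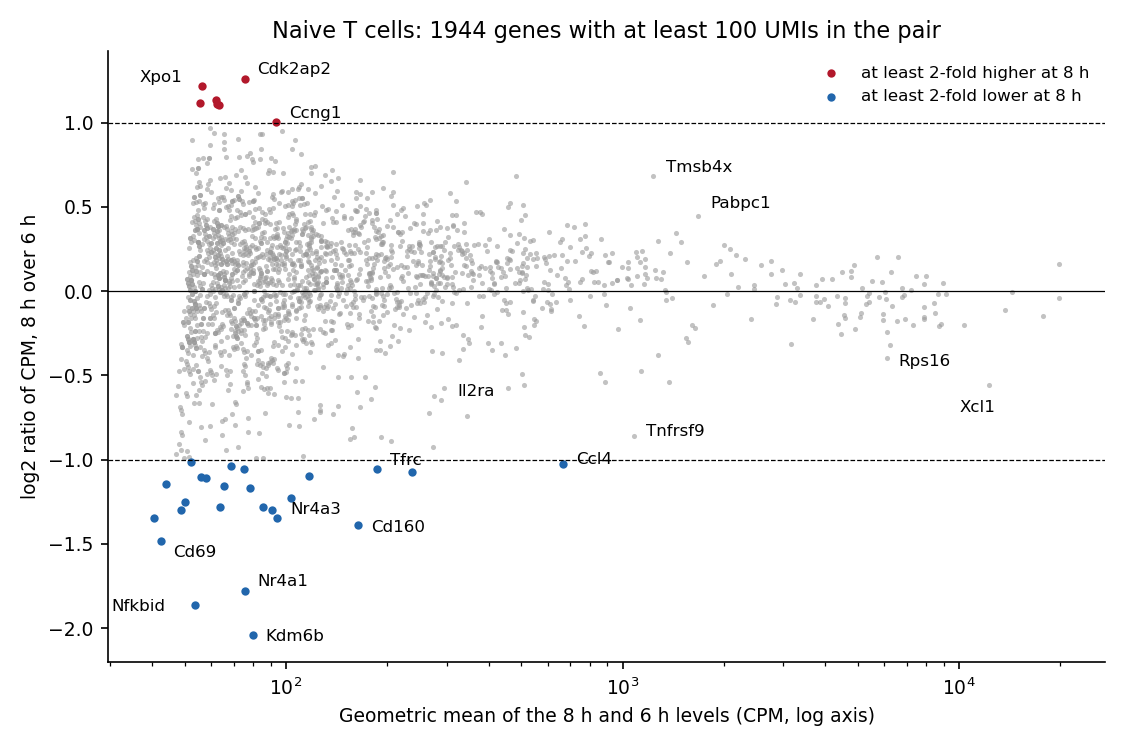
Each point is 1 of 1944 genes, with the log2 ratio of CPM (8 h over 6 h) against the geometric mean of both levels in CPM on a log axis, and dashed lines at 2-fold. The 25 genes below the lower line reach Kdm6b at -2.04, while the 7 above the upper line lie among genes of low level and reach Cdk2ap2 at 1.26.

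Among immediate early genes, the NR4A orphan nuclear receptors, which T cell receptor signals switch on within the first hours, were much lower at 8 h. Nr4a1 had 40.8 CPM at 8 h (29 UMIs) and 140.0 CPM at 6 h (178 UMIs), a log2 ratio of -1.78 with a 95% interval of -2.40 to -1.21. Nr4a3 had 59.1 CPM at 8 h and 150.2 CPM at 6 h, a log2 ratio of -1.35 (-1.86 to -0.86). Nr4a2 had 80.2 CPM at 8 h and 158 CPM at 6 h, a log2 ratio of -0.98 (-1.43 to -0.55), just inside 2-fold. The level of each at 6 h was itself far under its highest level, and by 8 h the 3 receptors together stood at 180 CPM, against 448 CPM at 6 h. Over the whole course the 3 summed to 86.2 CPM at 0 h, 3064 CPM at 2 h, 1201 CPM at 4 h, 448 CPM at 6 h and 180 CPM at 8 h.

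Dusp2, a phosphatase that switches off mitogen-activated kinases, had 67.6 CPM at 8 h and 158 CPM at 6 h, a log2 ratio of -1.23 (-1.71 to -0.77). In CPM its 8 h level was back at that of unstimulated cells, which was 65.6 CPM at 0 h. CPM is a share of all UMIs, and the median UMIs per cell were 375 at 0 h and 659 at 8 h. Levels per cell were not compared with 0 h, here or for the genes below. The list of immediate early and EGR/NR4A genes has 33 members, of which 7 had at least 100 UMIs. Of these, 3 were past 2-fold and 5 past 1.5-fold, all lower at 8 h, against 1.29% and 4.84% of all genes compared. The median log2 ratio of the 7 was -0.98, against 0.09 over the 1944 genes. All 33 members summed to 671 CPM at 8 h and 1251 CPM at 6 h. Jund, an AP-1 subunit, was the 1 member of the 7 above 0. It had 94.3 CPM at 8 h and 72.3 CPM at 6 h, a log2 ratio of 0.38 (-0.09 to 0.85), and 139 CPM at 0 h.

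The EGR factors were too sparse for the 100 UMI minimum and are named here after their values were seen. Egr1, Egr2 and Egr3 together had 29.6 CPM at 8 h (21 UMIs) and 70.8 CPM at 6 h (90 UMIs), a log2 ratio of -1.26 (-2.02 to -0.56). They had summed to 10.9 CPM at 0 h, 1051 CPM at 2 h and 232 CPM at 4 h, so that both times of the pair lie late in their decline. Junb, another AP-1 subunit, had 26.7 CPM at 8 h and 55.8 CPM at 6 h, though its 0 h level of 137 CPM was close to that of Jund. Gadd45b, a stress and growth arrest factor, had 21.1 CPM at 8 h and 50.3 CPM at 6 h.

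**Figure D2:**
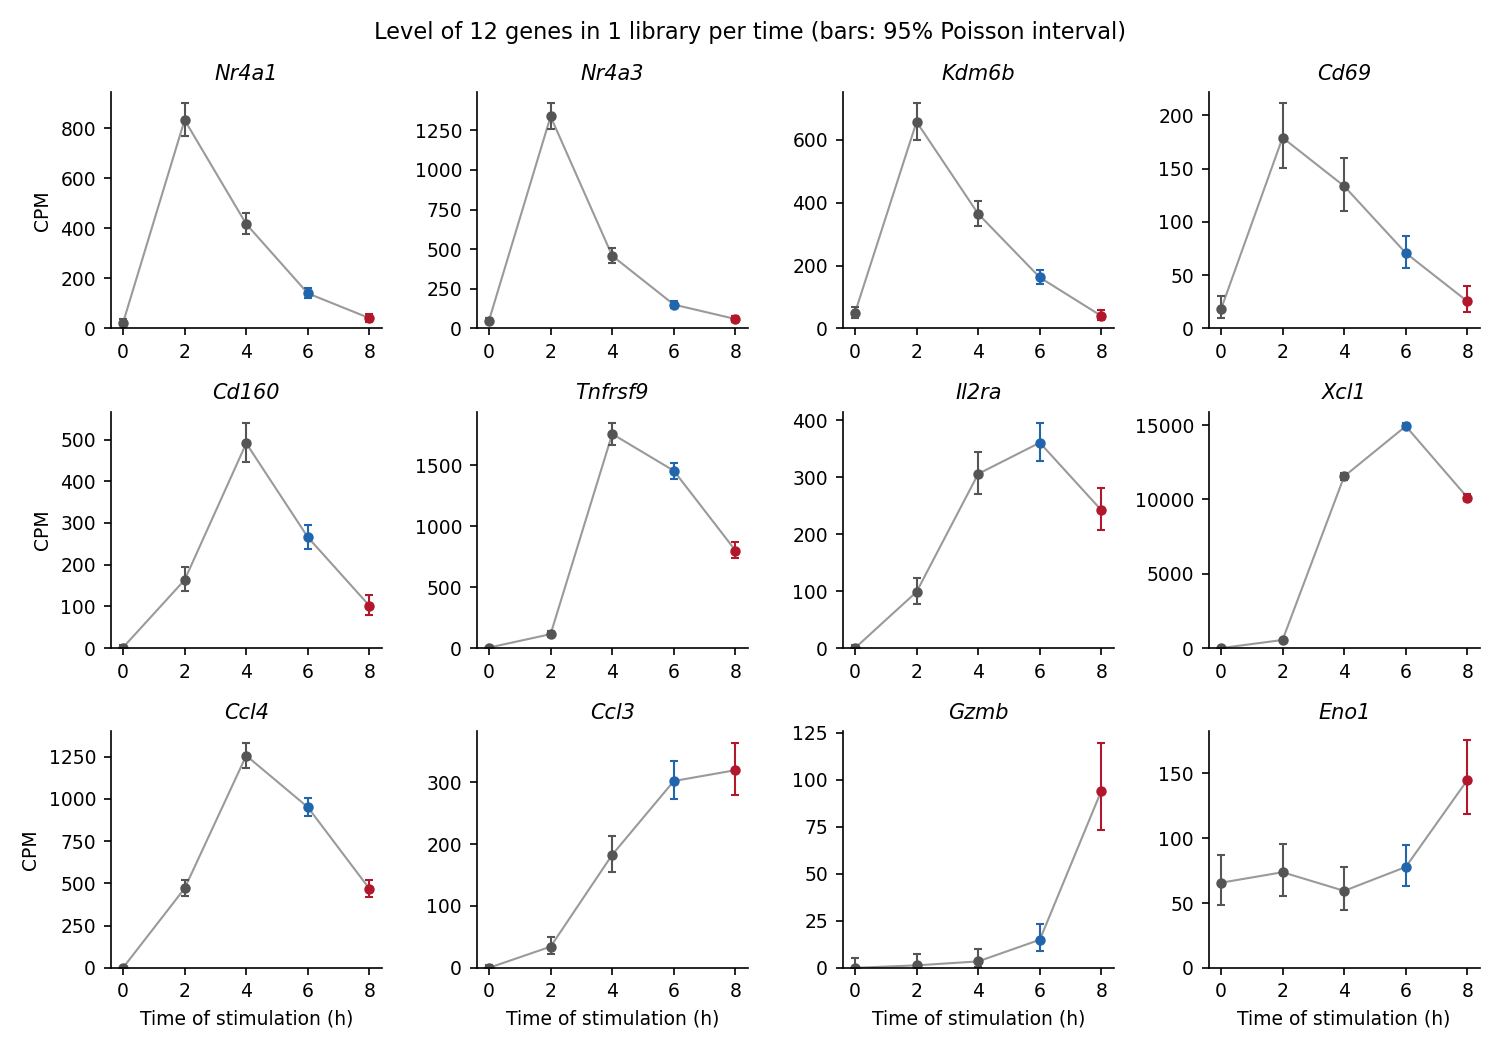
Level in CPM of 12 genes against hours of stimulation, with 1 library per time, 8 h in red and 6 h in blue, and bars giving the 95% Poisson interval of the count. Nr4a1, Nr4a3, Kdm6b and Cd69 were highest at 2 h and lowest after stimulation at 8 h, Cd160, Tnfrsf9 and Ccl4 were highest at 4 h, Il2ra and Xcl1 at 6 h, and Ccl3, Gzmb and Eno1 at 8 h.

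The NF-kappaB and NFAT list, which holds the subunits of these factors with their inhibitors and signalling partners, had 13 of 29 members with at least 100 UMIs. Of these, 12 were below 0 at 8 h, 5 were lower past 1.5-fold and 3 past 2-fold, against 37.7%, 4.84% and 1.29% of all genes compared, and their median log2 ratio was -0.58, against 0.09. Nfkbid, an atypical nuclear inhibitor of the NF-kappaB family, had 28.1 CPM at 8 h (20 UMIs) and 102 CPM at 6 h (130 UMIs), a log2 ratio of -1.86 (-2.62 to -1.17). Rel, the c-Rel subunit that T cells need for activation, had 25.3 CPM at 8 h and 64.5 CPM at 6 h, a log2 ratio of -1.35 (-2.17 to -0.60). Nfat5, a relative of the calcium-regulated NFAT factors, had 29.6 CPM at 8 h and 65.3 CPM at 6 h, a log2 ratio of -1.14 (-1.91 to -0.44). Traf1, an adaptor of tumour necrosis factor receptors, had 61.9 CPM at 8 h and 111 CPM at 6 h, a log2 ratio of -0.84 (-1.36 to -0.34). For Nfkbid and Rel the 8 h level was at or under that of the 0 h library, which gave 27.4 CPM for Nfkbid and 43.8 CPM for Rel.

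Kdm6b, a demethylase that removes the repressive histone H3 lysine 27 methylation mark, had the largest decrease of all genes with at least 100 UMIs. It had 39.4 CPM at 8 h (28 UMIs) and 162 CPM at 6 h (206 UMIs), a log2 ratio of -2.04 (-2.66 to -1.47). Its level had been 49.2 CPM at 0 h, 657 CPM at 2 h and 364 CPM at 4 h, so in CPM the 8 h library was back near the level before stimulation. Among the 12 lowest ratios were also Tagap, a GTPase-activating protein of activated T cells, with 57.7 CPM at 8 h and 142 CPM at 6 h, and Mir155hg, the host transcript of the microRNA miR-155, with 40.8 CPM at 8 h and 99.1 CPM at 6 h. Itgb2, the beta chain of the adhesion receptor LFA-1, had 32.4 CPM at 8 h and 77.1 CPM at 6 h, a log2 ratio of -1.25.

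Of the 32 lineage and effector transcription factors, 5 had at least 100 UMIs, with a median log2 ratio of -0.72. Runx1, a T lineage factor, had 54.9 CPM at 8 h and 134 CPM at 6 h, a log2 ratio of -1.28 (-1.83 to -0.77). Irf4, a factor whose level follows the strength of the receptor signal, had 84.4 CPM at 8 h and 139 CPM at 6 h, a log2 ratio of -0.72 (-1.17 to -0.29). Irf8 had 53.5 CPM at 8 h and 92.8 CPM at 6 h, a log2 ratio of -0.79 (-1.36 to -0.26). Ikzf1, the zinc finger factor Ikaros, was lower by less, with 87.3 CPM at 8 h and 117 CPM at 6 h and an interval that reached 0 (-0.88 to 0.01). Unlike Runx1, which had 78.0 CPM at 0 h, Irf4 stayed far above its 0 h level of 1.37 CPM. Fli1, the ETS factor in the title of the study, was near the limit of detection in both libraries, with 11.3 CPM at 8 h (8 UMIs) and 12.6 CPM at 6 h (16 UMIs). Its log2 ratio of -0.16 had an interval of -1.59 to 1.15, so a change between 6 h and 8 h was not detectable at this depth, whereas the 0 h library gave 169.6 CPM.

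The activation receptors were lower at 8 h in most cases, including both markers that were fixed for activated cells. Tnfrsf9, the costimulatory receptor CD137, had 801 CPM at 8 h (569 UMIs) and 1455 CPM at 6 h (1851 UMIs), a log2 ratio of -0.86 (-1.0 to -0.73). Il2ra, the alpha chain of the interleukin 2 receptor, had 242 CPM at 8 h (172 UMIs) and 361 CPM at 6 h (459 UMIs), a log2 ratio of -0.58 (-0.84 to -0.32). Neither passed 2-fold, and both stayed far above the 0 h library, which had 4.10 CPM of Tnfrsf9 and no UMI of Il2ra.

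Across cells thinned to 300 UMIs each, which kept 893 cells at 8 h and 1765 cells at 6 h, 21.9% of cells at 8 h had a UMI of Tnfrsf9 (19.3% to 24.8%), against 33.2% at 6 h (31.0% to 35.5%). The intervals did not overlap, and the share in the thinned 0 h library was 0.0827%. For Il2ra the shares were 6.05% at 8 h (4.58% to 7.82%) and 9.24% at 6 h (7.92% to 10.7%). Without thinning the shares were 39.6% at 8 h and 52.7% at 6 h for Tnfrsf9, and 14.4% at 8 h and 19.5% at 6 h for Il2ra. Cells with 2 to 4 UMIs of Tnfrsf9 made up 3.02% at 8 h and 7.59% at 6 h. Cells with 5 or more were 0 of 893 at 8 h and 3 of 1765 at 6 h, so cells with several molecules were rarer too. Whether fewer cells held Tnfrsf9 RNA or each held less was not tested, since both lower these shares. No relation between Il2ra and Tnfrsf9 in the same cell was seen, but only 54 thinned cells at 8 h and 163 at 6 h had a UMI of Il2ra. With so few cells and UMIs, a relation could go unseen. Of the thinned cells with a UMI of Il2ra, 22.2% at 8 h and 31.9% at 6 h also had a UMI of Tnfrsf9, close to the 21.9% at 8 h and 33.3% at 6 h among the other cells.

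Several further receptors moved more than these markers. Cd69, the early activation antigen that keeps T cells in the lymph node, had 25.3 CPM at 8 h (18 UMIs) and 70.8 CPM at 6 h (90 UMIs), a log2 ratio of -1.48 (-2.30 to -0.74). Cd160, an immunoglobulin-family receptor of CD8 T and natural killer cells, had 101 CPM at 8 h and 266 CPM at 6 h, a log2 ratio of -1.39 (-1.78 to -1.02). Tfrc, the transferrin receptor through which dividing cells take up iron, had 129 CPM at 8 h and 269 CPM at 6 h, a log2 ratio of -1.05 (-1.40 to -0.72). Cd69 at 8 h was close to its 0 h level of 17.8 CPM, while Cd160 and Tfrc were still well above theirs, at 1.37 CPM and 9.57 CPM. Slamf1, a homotypic costimulatory receptor, had 57.7 CPM at 8 h and 115 CPM at 6 h, a log2 ratio of -0.99 (-1.53 to -0.48).

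Of the 25 activation markers, 12 had at least 100 UMIs, and 9 of them were below 0, 7 lower past 1.5-fold and 3 past 2-fold, against 37.7%, 4.84% and 1.29% of all genes, with a median of -0.64. The 3 members above 0 were Cd200, Tnfrsf4 and Cd5. Cd200, an inhibitory ligand of the immunoglobulin family, had 249 CPM at 8 h and 168 CPM at 6 h, and its level in the earlier libraries was 5.47 CPM at 0 h, 14.5 CPM at 2 h and 52.5 CPM at 4 h. Tnfrsf4, the costimulatory receptor OX40, had 134 CPM at 8 h and 101 CPM at 6 h, and had 10.9 CPM at 0 h, 17.1 CPM at 2 h and 46.8 CPM at 4 h. These receptors were thus still highest in the last library while Tnfrsf9 was highest at 4 h. Cd274, the checkpoint ligand PD-L1, was under the minimum of 100 UMIs, with 14.1 CPM at 8 h (10 UMIs) and 48.7 CPM at 6 h (62 UMIs), and is named after its values were seen.

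**Figure D3:**
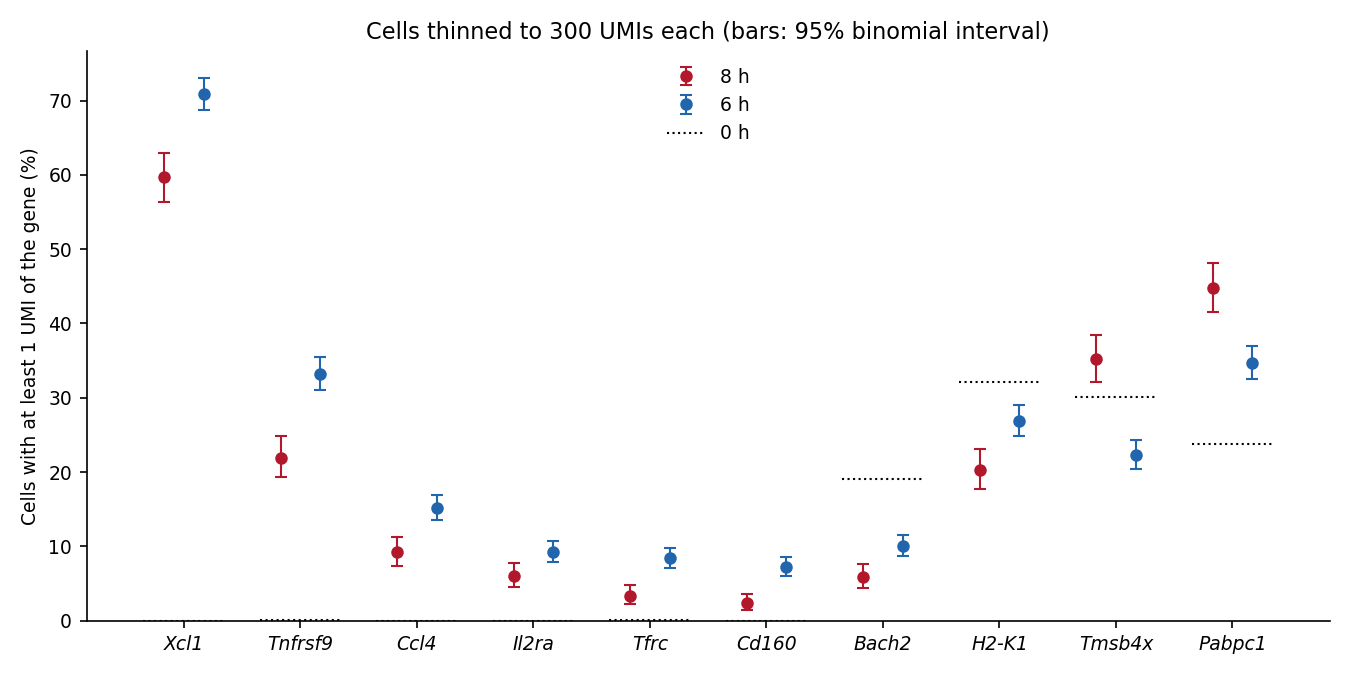
Percentage of cells with at least 1 UMI of a gene after each cell was thinned to 300 UMIs, for 8 h (red, 893 cells) and 6 h (blue, 1765 cells), with 95% binomial intervals, and a dotted line for the 0 h library. Xcl1, Tnfrsf9, Ccl4, Tfrc and Cd160 lie lower at 8 h with intervals that do not overlap, and Tmsb4x and Pabpc1 lie higher at 8 h.

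The chemokines behaved differently from each other. Xcl1, lymphotactin, which attracts cross-presenting dendritic cells, had 10126 CPM at 8 h (7195 UMIs) and 14924 CPM at 6 h (18981 UMIs), a log2 ratio of -0.56 (-0.60 to -0.52). Ccl4, an inflammatory chemokine, had 467 CPM at 8 h (332 UMIs) and 951 CPM at 6 h (1209 UMIs), a log2 ratio of -1.02 (-1.20 to -0.85). Ccl3, a closely related chemokine, had 319 CPM at 8 h (227 UMIs) and 302 CPM at 6 h (384 UMIs), a log2 ratio of 0.08 (-0.16 to 0.32). The counting intervals of Ccl3 and Ccl4 lie apart. These intervals take each UMI as independent, while at 8 h the 227 Ccl3 UMIs lay in 113 cells and the 332 Ccl4 UMIs in 158 cells. Variation between cells is not covered by them. Ccl3 had 0 UMIs at 0 h, 34.2 CPM at 2 h and 183 CPM at 4 h, while Ccl4 had 0 UMIs at 0 h, 470.3 CPM at 2 h and 1256 CPM at 4 h.

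Xcl1 was found in 59.7% of thinned cells at 8 h (56.4% to 62.9%) and 70.9% at 6 h (68.8% to 73.0%), and in 0 cells of the 0 h library. Without thinning the shares were 70.5% at 8 h and 76.5% at 6 h. Cells with 10 or more Xcl1 UMIs of their 300 made up 9.29% at 8 h (7.47% to 11.4%) and 14.6% at 6 h (12.9% to 16.3%), and cells with 5 to 9 made up 16.0% at 8 h and 24.8% at 6 h. In the cells that had any, the mean was 4.90 Xcl1 UMIs at 8 h and 6.10 at 6 h. Free RNA could give single UMIs of so abundant an RNA to cells that do not express it, and its share was not measured in these libraries, so the shares count cells with a UMI and not cells expressing Xcl1. Ccl4 was found in 9.18% of thinned cells at 8 h (7.37% to 11.3%) and 15.2% at 6 h (13.5% to 16.9%), and without thinning in 16.2% at 8 h and 23.8% at 6 h. Among thinned cells with a UMI of Ccl3, 31.6% at 8 h and 43.8% at 6 h also had one of Ccl4, against 7.66% at 8 h and 13.2% at 6 h of the cells without Ccl3.

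Of the 27 cytokines and chemokines on the list, 7 had at least 100 UMIs, with a median of -0.06. Mif, the macrophage migration inhibitory factor, had 3489 CPM at 8 h and 3251 CPM at 6 h, a log2 ratio of 0.10 (0.03 to 0.17) that was 0.01 under median-of-ratios size factors. Tgfb1 had 117 CPM at 8 h and 137 CPM at 6 h, a log2 ratio of -0.23 (-0.62 to 0.16). Il2, the main T cell growth factor, was nearly absent from both libraries, with 5 UMIs at 8 h and 19 UMIs at 6 h, and Ifng, interferon gamma, had 19 UMIs at 8 h and 24 UMIs at 6 h. Csf2, Il3, Il4, Il17a, Il21 and Il22 had 0 UMIs in both libraries, which allows up to 4.22 CPM at 8 h and 2.36 CPM at 6 h for each (3 counts per library).

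Gzmb, the cytotoxic protease granzyme B, stood out in the opposite direction and is named after its values were seen, since its 86 UMIs fall short of the minimum. It had 94.3 CPM at 8 h (67 UMIs, interval 73.1 to 120 CPM) and 14.9 CPM at 6 h (19 UMIs, interval 8.99 to 23.3 CPM). The log2 ratio of 2.66 (1.91 to 3.48), a 6.31-fold higher level at 8 h, was the largest among 4563 genes that reached 30 UMIs over both libraries. At the earlier times Gzmb had 0 UMIs at 0 h, 1 UMI at 2 h and 3 UMIs at 4 h. The molecules sat in 38 cells at 8 h and 14 cells at 6 h, of which 12 cells at 8 h and 3 cells at 6 h held 2 or more. The richest cell held 10 UMIs at 8 h and 3 UMIs at 6 h, and without that cell the level was 80.4 CPM at 8 h and 12.6 CPM at 6 h.

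The other cytotoxic genes were mixed in direction. Klrd1, the CD94 receptor chain, had 67.6 CPM at 8 h (48 UMIs) and 29.1 CPM at 6 h (37 UMIs), a log2 ratio of 1.22 (0.57 to 1.87). Unlike Gzmb, Klrd1 was highest before stimulation, with 98.5 CPM at 0 h, 59.3 CPM at 2 h and 26.3 CPM at 4 h. Prf1, perforin, the pore former through which granzymes enter the target cell, had 19.7 CPM at 8 h (14 UMIs) and 44.8 CPM at 6 h (57 UMIs). Nkg7, a protein of cytotoxic granules, had 480 CPM at 8 h and 580.3 CPM at 6 h, a log2 ratio of -0.27 (-0.46 to -0.09). Serpinb9, the mouse relative of the inhibitor that shields cytotoxic cells from granzyme B, had 73.2 CPM at 8 h and 55.8 CPM at 6 h with an interval spanning 0 (-0.15 to 0.93), and had 2.74 CPM at 0 h, 5.27 CPM at 2 h and 18.3 CPM at 4 h. The 4 members of the cytotoxic list with at least 100 UMIs had a median of 0.07, close to that of all genes.

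The T cell receptor complex and its partners held no gene past 2-fold, but more of them lay below 0 than above. Of its 29 members and proximal signalling partners, 23 had at least 100 UMIs, with a median of -0.13. Of these, 10 were above 0 and 13 below, against 37.7% of all genes below 0. At 1.5-fold 3 were lower, against 4.84% of all genes. Trac, Trbc1 and Trbc2, the constant regions of the receptor chains, had log2 ratios of -0.21, 0.11 and 0.09. The 3 lower members were Cd2, Lcp2 and Thy1. Cd2, an adhesion receptor, had 53.5 CPM at 8 h and 88.8 CPM at 6 h, a log2 ratio of -0.73 (-1.30 to -0.19). Lcp2, the adaptor SLP-76, had 131 CPM at 8 h and 211 CPM at 6 h, a log2 ratio of -0.69 (-1.04 to -0.34). Thy1, the surface glycoprotein CD90, had 231 CPM at 8 h and 361 CPM at 6 h, a log2 ratio of -0.64 (-0.91 to -0.38). Csk, the kinase that holds Lck inactive, went the other way, with 135 CPM at 8 h and 92.0 CPM at 6 h, a log2 ratio of 0.55 (0.15 to 0.96).

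Cytokine receptors and their feedback genes gave 7 of 28 members with at least 100 UMIs and a median of -0.31. Bcl2l1, the survival protein Bcl-xL, had 60.5 CPM at 8 h and 120 CPM at 6 h, a log2 ratio of -0.99 (-1.51 to -0.49). Pim1, a survival kinase induced by cytokine receptors, had 50.7 CPM at 8 h and 85.7 CPM at 6 h, a log2 ratio of -0.76 (-1.34 to -0.20). Cflar, the caspase 8 inhibitor c-FLIP, had 31.0 CPM at 8 h and 76.3 CPM at 6 h, a log2 ratio of -1.30 (-2.04 to -0.62). The 9 members of the apoptosis and survival list with at least 100 UMIs nevertheless had a median of 0.12. Of the 9, 2 were past 1.5-fold, both lower, against 4.84% of all genes.

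Few interferon response and antigen presentation genes were measured. The 7 of 31 matched members that had at least 100 UMIs lay between -0.88 and -0.02, with a median of -0.38, against 37.7% of all genes below 0. Of the 7, 1 was lower past 1.5-fold, against 4.84% of all genes. H2-K1, a heavy chain of major histocompatibility complex (MHC) class I, had 737 CPM at 8 h and 1071 CPM at 6 h, a log2 ratio of -0.54 (-0.69 to -0.39). H2-D1, the heavy chain of another class I gene, had 374 CPM at 8 h and 557 CPM at 6 h, a log2 ratio of -0.57 (-0.78 to -0.37). B2m, their shared light chain, had 1120.3 CPM at 8 h and 1458 CPM at 6 h, a log2 ratio of -0.38 (-0.50 to -0.26). The class I heavy chain genes are near-identical, so how reads were split between them is uncertain, but both lay lower. Ifi27l2a, an interferon-stimulated gene, had 114 CPM at 8 h and 210 CPM at 6 h, a log2 ratio of -0.88 (-1.26 to -0.52).

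Genes of the naive state had mostly declined before 6 h, and few were measurable. The 27 naive and circulation genes summed to 7806 CPM at 0 h, 1335 CPM at 6 h and 1063 CPM at 8 h, and the 7 members with at least 100 UMIs had a median of -0.16. Bach2, a repressor of effector differentiation, had 198 CPM at 8 h and 377 CPM at 6 h, a log2 ratio of -0.93 (-1.21 to -0.65). Satb1, a chromatin organiser of T cells, had 80.2 CPM at 8 h and 124 CPM at 6 h, a log2 ratio of -0.63 (-1.09 to -0.19). Ccr7, the receptor that guides naive T cells into lymph nodes, ran against them, with 113 CPM at 8 h and 62.9 CPM at 6 h, a log2 ratio of 0.84 (0.37 to 1.31). Its level had been 633 CPM at 0 h, 84.3 CPM at 2 h and 61.7 CPM at 4 h, so the 8 h value remained far under the 0 h value.

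**Figure D4:**
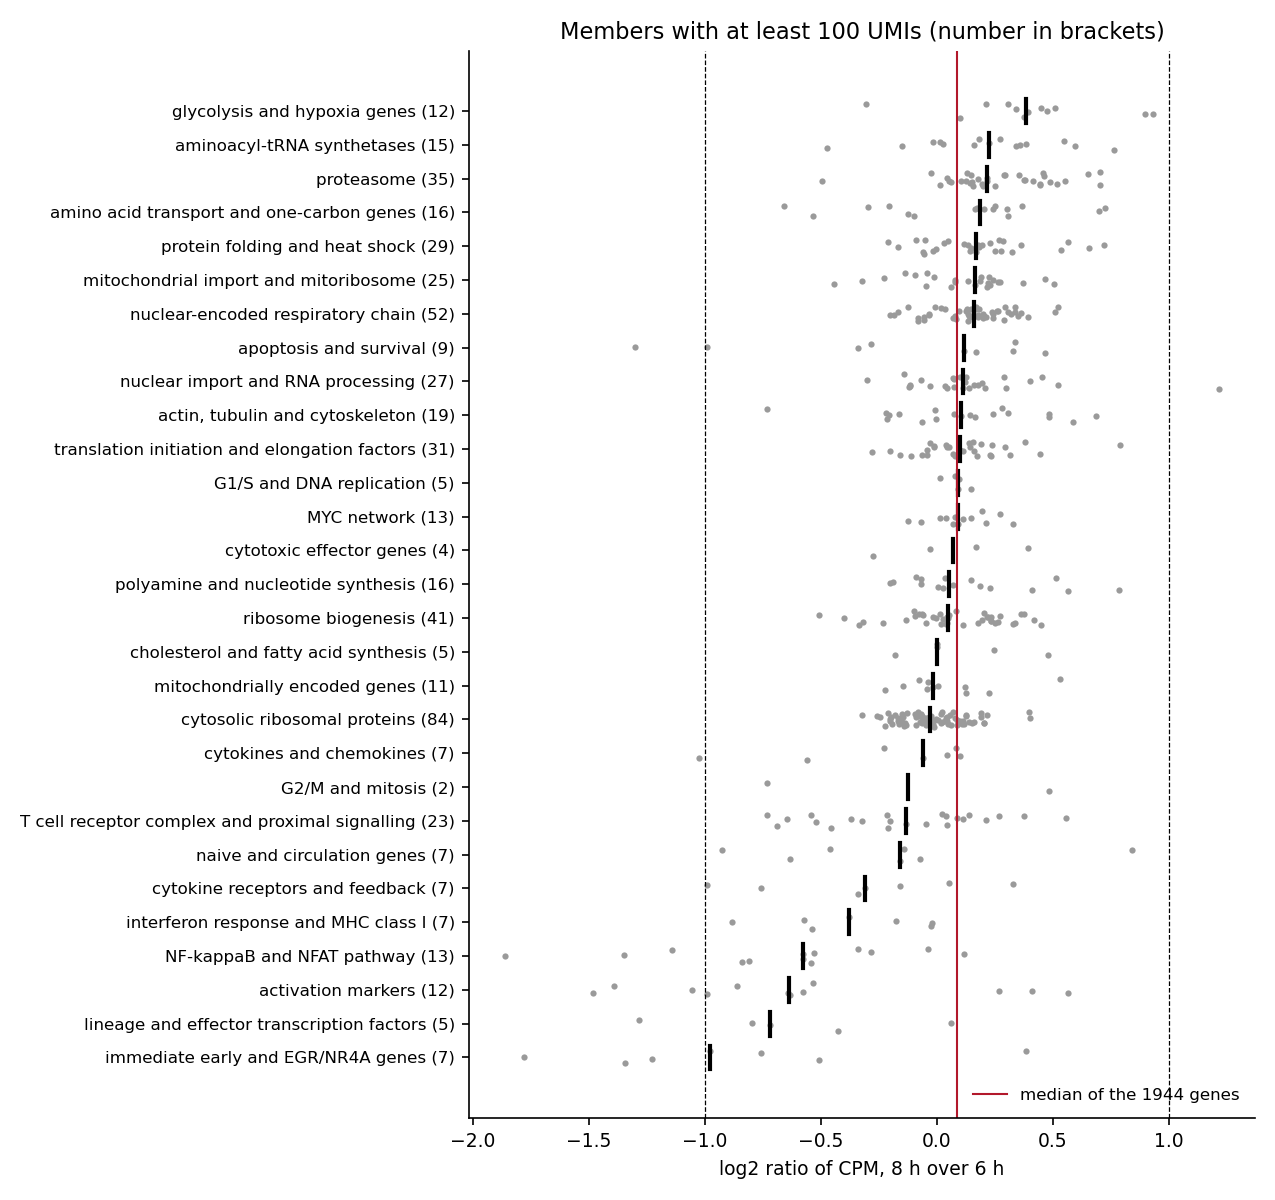
Members of each gene list that reached 100 UMIs over both libraries, as grey points at their log2 ratio of CPM (8 h over 6 h), with the list median as a black bar, the number of members in brackets, and a red line at the median of the 1944 genes, 0.09. Medians run from -0.98 for the immediate early genes to 0.39 for the glycolysis genes, and most metabolic and protein synthesis lists sit near the red line.

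Glycolysis had the highest median of the lists, 0.39, with 11 of the 12 members that had at least 100 UMIs above 0, against 62.3% of all genes, and 2 past 1.5-fold, both higher at 8 h, against 4.48% of all genes. Eno1, enolase, had 145 CPM at 8 h (103 UMIs) and 77.8 CPM at 6 h (99 UMIs), a log2 ratio of 0.90 (0.48 to 1.31). Tpi1, triosephosphate isomerase, had 117 CPM at 8 h (83 UMIs) and 61.3 CPM at 6 h (78 UMIs), a log2 ratio of 0.93 (0.47 to 1.39). Enolase had stayed between 59.4 and 77.8 CPM from 0 h to 6 h, while triosephosphate isomerase had 9.57 CPM at 0 h, 2.63 CPM at 2 h and 28.6 CPM at 4 h. Pgk1, phosphoglycerate kinase, had 310 CPM at 8 h and 218 CPM at 6 h, a log2 ratio of 0.51 (0.25 to 0.77). Gapdh, the best measured enzyme of the pathway, had 1619 CPM at 8 h and 1277 CPM at 6 h, a log2 ratio of 0.34 (0.23 to 0.45). The 25 members summed to 8599 CPM at 8 h and 7300 CPM at 6 h, of which Mif, which the list also holds, gave 3489 CPM at 8 h and 3251 CPM at 6 h. Ldha, lactate dehydrogenase, which makes lactate from the product of glycolysis, had 856 CPM at 8 h and 740 CPM at 6 h, a log2 ratio of 0.21 (0.06 to 0.36).

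Other biosynthetic lists lay above 0 by less. The proteasome had 33 of 35 measured subunits above 0, against 62.3% of all genes, and a median of 0.22, with 3 higher past 1.5-fold, against 4.48% of all genes. Psma1, a subunit of the core particle, had 125 CPM at 8 h and 77.1 CPM at 6 h, a log2 ratio of 0.70 (0.27 to 1.13). Psmc4, an ATPase of the regulatory particle, had 113 CPM at 8 h and 69.2 CPM at 6 h, a log2 ratio of 0.70 (0.25 to 1.16). Psme2, a subunit of the interferon-inducible activator, was the main exception, with 422 CPM at 8 h and 594 CPM at 6 h, a log2 ratio of -0.49 (-0.69 to -0.30). Psme1, its partner in that activator, was level, with 697 CPM at 8 h and 691 CPM at 6 h, as was the interferon-inducible core subunit Psmb8, with 87.3 CPM at 8 h and 88.8 CPM at 6 h.

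The 15 aminoacyl-tRNA synthetases with at least 100 UMIs, which charge transfer RNAs with amino acids, had a median of 0.22 and 12 members above 0, against 62.3% of all genes. Rars, which charges arginine, had 104 CPM at 8 h and 61.3 CPM at 6 h, a log2 ratio of 0.76 (0.29 to 1.24). Mars, which charges methionine, had 84.4 CPM at 8 h and 44.0 CPM at 6 h, a log2 ratio of 0.94 (0.39 to 1.49). The list holds it under its newer symbol Mars1, which the files do not use, so it is not among the 15 and is named for its place among the 12 highest ratios. Amino acid transport and one-carbon genes split, with a median of 0.19 over 16 members. The 2 members higher past 1.5-fold, against 4.48% of all genes, were serine synthesis enzymes. Psat1 had 151 CPM at 8 h and 92.8 CPM at 6 h, a log2 ratio of 0.70 (0.31 to 1.09), and Psph had 67.6 CPM at 8 h and 40.9 CPM at 6 h, a log2 ratio of 0.72 (0.13 to 1.32). Of their 5 measured transporters, Slc38a1 had a log2 ratio of 0.20 (-0.27 to 0.67), Slc1a5 of -0.10 (-0.39 to 0.19) and Slc7a5 of -0.13 (-0.70 to 0.43), and Slc7a1 alone was past 1.5-fold. Slc3a2, the shared heavy chain of large amino acid transporters, had 92.9 CPM at 8 h and 134 CPM at 6 h, a log2 ratio of -0.53 (-0.97 to -0.12), and the arginine carrier Slc7a1 had 56.3 CPM at 8 h and 88.8 CPM at 6 h, a log2 ratio of -0.66 (-1.22 to -0.13).

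Chaperones had 21 of 29 measured members above 0, near the 62.3% of all genes, and a median of 0.17. Dnaja1, a co-chaperone of HSP70, had 176 CPM at 8 h and 107 CPM at 6 h, a log2 ratio of 0.72 (0.36 to 1.08). Fkbp4, a co-chaperone of HSP90, had 208 CPM at 8 h and 132 CPM at 6 h, a log2 ratio of 0.66 (0.33 to 0.98). The nuclear-encoded respiratory chain had 41 of 52 measured members above 0, against 62.3% of all genes, and a median of 0.16, with none past 1.5-fold, and Uqcr11, a subunit of complex III, had 556 CPM at 8 h and 388 CPM at 6 h, a log2 ratio of 0.52 (0.33 to 0.71). Mitochondrial import and mitoribosome genes likewise had a median of 0.16 over 25 members, and Tomm5, a subunit of the outer membrane import pore, had 431 CPM at 8 h and 311 CPM at 6 h, a log2 ratio of 0.47 (0.25 to 0.69). Mitochondrially encoded genes had a median of -0.02 over 11 members.

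Polyamine and nucleotide synthesis genes had a median of 0.05 over 16 members, and their leading members were enzymes of purine synthesis. Paics had 109.8 CPM at 8 h and 63.7 CPM at 6 h, a log2 ratio of 0.79 (0.32 to 1.25). Of the 16, Paics was the 1 member past 1.5-fold, against 4.48% of all genes higher by that much. Impdh2, which opens the route to guanine nucleotides, had 248 CPM at 8 h and 174 CPM at 6 h, a log2 ratio of 0.51 (0.22 to 0.80). Nuclear import and RNA processing genes had a median of 0.11 over 27 members, among them the splicing factor Srsf1, with 307 CPM at 8 h and 214 CPM at 6 h and a log2 ratio of 0.52 (0.26 to 0.78). The 5 measured cholesterol and fatty acid synthesis genes had a median of 0.00. Of these, 4 lay above 0, against 62.3% of all genes, up to 0.48 for Idi1. Fasn, fatty acid synthase, was the 1 below 0, with 165 CPM at 8 h and 186 CPM at 6 h and an interval spanning 0 (-0.51 to 0.15).

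The protein synthesis machinery was nearly level. The 84 cytosolic ribosomal protein genes with at least 100 UMIs had a median of -0.03, with none past 1.5-fold. Rps16 had 5589 CPM at 8 h and 6983 CPM at 6 h, a log2 ratio of -0.32 (-0.38 to -0.27). Rps27l, a paralogue of Rps27 whose reads could be split with its near-identical relatives, had 888 CPM at 8 h and 675 CPM at 6 h, a log2 ratio of 0.40 (0.25 to 0.55). Ribosome biogenesis genes had a median of 0.05 over 41 members, which was -0.04 under median-of-ratios size factors, and translation factors had a median of 0.10 over 31. Of those 31, Eif4a3, at 0.79, was the 1 member past 1.5-fold, against 4.48% of all genes higher by that much. Pabpc1, the cytoplasmic poly(A)-binding protein, was higher, with 1958 CPM at 8 h and 1440 CPM at 6 h, a log2 ratio of 0.44 (0.34 to 0.54), and was found in 44.8% of thinned cells at 8 h and 34.7% at 6 h (69.5% and 55.7% without thinning).

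Myc, the gene of a transcription factor of cell growth, was sparse and is named after its values were seen. It had 26.7 CPM at 8 h (19 UMIs), 61.3 CPM at 6 h (78 UMIs) and 123 CPM at 4 h. The 13 measured members of the MYC network had a median of 0.09, equal to that of all genes. Of these, 11 were above 0, against 62.3% of all genes, and none was past 1.5-fold. A link between Myc and the lists above was not tested. Npm1, nucleophosmin, had 2203 CPM at 8 h and 1826 CPM at 6 h, a log2 ratio of 0.27 (0.18 to 0.36), and Ldha belongs to this list too.

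Cell cycle genes were close to level, and mitotic genes were barely detected. Ccnd3, Cdk4, Cdk6 and Pcna, which act at the entry to and during DNA replication, had log2 ratios of 0.15, 0.09, 0.08 and 0.10, each with an interval spanning 0, and the 5 measured members of the G1/S list had a median of 0.09. Of the 24 genes of G2/M and mitosis, 12 had 0 UMIs in both libraries, among them Mki67, Ccnb1 and Cdk1. The 2 with 100 or more UMIs were the tubulins Tuba1c, at -0.73, and Tubb4b, at 0.48. Their median of -0.13 therefore says little about mitosis. The helicase subunits Mcm2 to Mcm7, which unwind DNA at replication forks, were each under 100 UMIs and were summed after their values were seen. Together they had 221 CPM at 8 h (157 UMIs) and 140.0 CPM at 6 h (178 UMIs), a log2 ratio of 0.66 (0.34 to 0.98), with 142 CPM at 0 h, 105 CPM at 2 h and 140.5 CPM at 4 h. The 8 h library thus had the highest sum of the 5 times, while single members differed: Mcm5 had 53.5 CPM at 8 h and 27.5 CPM at 6 h, and Mcm3 had 19.7 CPM at 8 h and 25.2 CPM at 6 h. Mcm2, Mcm5 and Mcm6 were highest at 8 h, Mcm3 at 4 h, Mcm4 at 2 h and Mcm7 at 0 h. All 39 members of the G1/S list, these helicase genes included, summed to 1651 CPM at 8 h and 1458 CPM at 6 h. The log2 ratio of that whole list was smaller, 0.18 (0.07 to 0.29). In the naive T library without 4sU, which is not among the 5 times, Mcm2 to Mcm7 had 19.9, 19.9, 31.7, 22.1, 43.4 and 67.0 CPM.

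Among cytoskeletal genes the median was 0.10 over 19 members, and 2 members stood apart on the higher side. Tmsb4x, the actin monomer binder thymosin beta 4, had 1565 CPM at 8 h (1112 UMIs) and 974 CPM at 6 h (1239 UMIs), a log2 ratio of 0.68 (0.57 to 0.80), and was found in 35.3% of thinned cells at 8 h and 22.3% at 6 h (56.7% and 39.0% without thinning). Tubb5, a beta tubulin, had 198 CPM at 8 h and 132 CPM at 6 h, a log2 ratio of 0.59 (0.25 to 0.92). Tuba1c, an alpha tubulin with close paralogues, went the other way, with 107 CPM at 8 h and 178 CPM at 6 h, a log2 ratio of -0.73 (-1.13 to -0.35). Actb, beta actin, was level, with 14343 CPM at 8 h and 14400.3 CPM at 6 h.

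Of the 7 genes past 2-fold on the higher side, Xpo1 alone was on one of the function lists. Cdk2ap2, a regulator of the kinase CDK2, had 117 CPM at 8 h (83 UMIs) and 48.7 CPM at 6 h (62 UMIs), a log2 ratio of 1.26 (0.77 to 1.76). Xpo1, the main nuclear exporter of proteins, had 85.9 CPM at 8 h (61 UMIs) and 37.0 CPM at 6 h (47 UMIs), a log2 ratio of 1.22 (0.64 to 1.80). Ccng1, a p53-induced cyclin, had 132 CPM at 8 h (94 UMIs) and 66.0 CPM at 6 h (84 UMIs), a log2 ratio of 1.00 (0.56 to 1.44). Dbi, Dap3, Kcnab2 and Cdc26 completed the 7, with log2 ratios of 1.10 to 1.13 and intervals that reached down to between 0.54 and 0.59. Cdk2ap2 was lower at 8 h than in the 0 h library, which gave 196 CPM, whereas Ccng1 was higher than in any earlier library.

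Many of the genes lower at 8 h had peaked early. Of the 25 genes past 2-fold, 13 (52%) had their highest level of the 0, 2 and 4 h libraries at 2 h, against 16.2% of the 1944 genes. The libraries at 0 h and 2 h are outside the pair, and 178 of the 1046 genes with at least 100 UMIs in both pairs were at least 2-fold higher at 2 h than at 0 h. Of these 178 genes, 37 (20.8%) were at least 1.5-fold lower at 8 h than at 6 h and 2 were at least 1.5-fold higher, with a median log2 ratio of -0.15. Over the 1046 genes 6.12% were lower by that much, and the median was 0.05. The 41 genes that had been at least 2-fold lower at 2 h than at 0 h had a median of 0.14, with 3 lower and 2 higher at 1.5-fold. Across the 1046 genes the Spearman correlation between both ratios was -0.19, a weak relation given as a description, since genes within a library are not independent replicates.

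**Figure D5:**
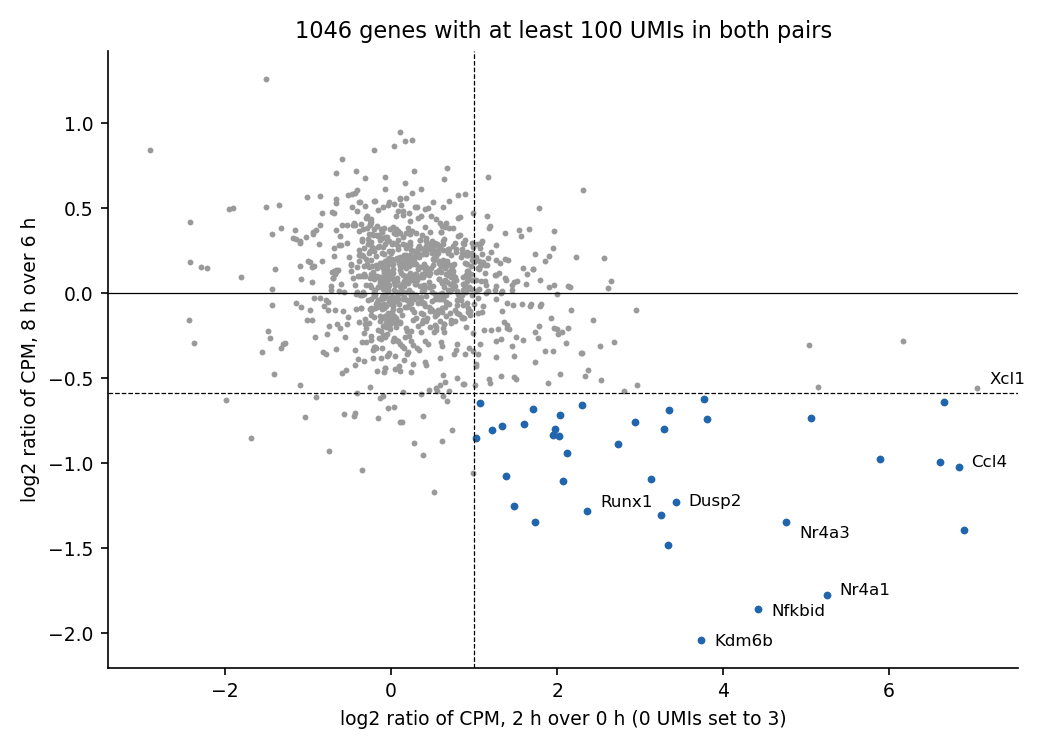
Each point is 1 of 1046 genes, with the log2 ratio of CPM at 8 h over 6 h against that at 2 h over 0 h, where a count of 0 was set to 3 UMIs. The 37 genes in blue were at least 2-fold higher at 2 h than at 0 h and at least 1.5-fold lower at 8 h than at 6 h, and Kdm6b, Nfkbid and Nr4a1 lie lowest.

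Expressed RNA of Cd4 and of Cd8a or Cd8b1 was too sparse to sort most cells: 88.2% of cells at 8 h and 90.7% at 6 h had a UMI of none of these genes. Cells with a UMI of Cd8a or Cd8b1 and none of Cd4 numbered 101 at 8 h and 166 at 6 h, and cells with Cd4 alone 13 at 8 h and 16 at 6 h. After thinning, the Cd8-marked share was 4.93% at 8 h (3.60% to 6.56%) and 3.85% at 6 h (3.00% to 4.86%), with intervals that overlapped. Within the Cd8-marked cells Xcl1, Tnfrsf9, Ccl4 and Cd160 were again lower at 8 h. Xcl1 had 11166 CPM at 8 h and 16652 CPM at 6 h in them, a log2 ratio of -0.58 (-0.68 to -0.47). Tnfrsf9 had 895 CPM at 8 h and 1723 CPM at 6 h, a log2 ratio of -0.94 (-1.32 to -0.58), and Ccl4 had 495 CPM at 8 h and 1200 CPM at 6 h, a log2 ratio of -1.28 (-1.78 to -0.80). In Cd8-marked cells Cd160 was down to 2 UMIs at 8 h, against 40 UMIs at 6 h. Other genes turned in these cells, on few UMIs each: the log2 ratio was 0.67 for Satb1, 0.25 for Irf8, 0.38 for Traf1 and 0.71 for Tnfrsf18, which were lower over all cells, and -0.48 for Mars and -0.71 for Psph, which were higher over all cells, each with an interval spanning 0. In Cd4-marked cells Tnfrsf9 turned to 1.17 (-0.73 to 3.35), on 8 UMIs at 8 h and 4 UMIs at 6 h. Since most cells carry neither marker, how far a different mix of CD4 and CD8 cells moves with these results was not tested.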

How the data were processed

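UMI counts for each gene in each cell barcode were deposited as matrices made with cellranger 7.2.0, per the file headers; the barcode and feature files deposited with them name the cells and genes and hold no measurement (unit other). The builds named in the submitters' processing notes are mm10 and GRCh38. Mapping settings and cell calling are not given in the sources used here. All barcodes were kept as deposited, and doublets were neither called nor removed. Counts were summed per library and divided by the library total (CPM), and the log2 ratio was 8 h over 6 h, with a count of 0 set to 3. Intervals are 95%: exact Poisson for levels, exact conditional binomial for ratios and Clopper-Pearson for shares, and cover counting error only. Shares used cells thinned to 300 UMIs, which left out 80 cells at 8 h and 200 at 6 h. Barcodes with 2 or more B cell marker UMIs, 4 at 8 h and 8 at 6 h, were too few to give a share from free RNA, which was therefore not measured; the 0 h share is given as the level before stimulation and is no such background. Markers that named a cell class were Cd4, Cd8a and Cd8b1.

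The genes named were Il2ra, Tnfrsf9 and Fli1, the 12 highest and 12 lowest ratios where a gene reached 100 UMIs over both libraries, and up to 4 members of each of 29 function lists by absolute ratio; Ccl3, Cd200, Cd5, Tnfrsf4, Jund, Gapdh, Psme2, Actb, Trac, Trbc1, Trbc2, Il2, Ifng, Psme1, Psmb8, Slc38a1, Slc1a5, Slc7a5, Klrd1, Prf1, Gzmb, Cd274, Junb, Gadd45b, Myc and the EGR and MCM genes were named after their values were seen. Members, lists and rule were chosen with earlier results of these data known. Mars1, Mx1 and Folr4 were not matched by symbol. Python 3.11.15, numpy 2.4.6, scipy 1.17.1 and pandas 2.3.3 were used, and the intervals were tested on simulated data. The alternatives were other scalings, cell filters, marked cells only, thinning of the 6 h library and other minimums.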

Additional observations from a re-analysis of the deposited data

How the results depend on the processing

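With 1 library per time no replicate could be left out and the library itself cannot be separated from the time. No paired analysis was possible because there is 1 library per time. The counts of 7 genes higher and 25 lower at 8 h stayed within 1.5 times under median-of-ratios size factors, totals without mitochondrial and ribosomal protein genes, equal weight per cell and 3 filters on barcodes. Thinning the 6 h library to the 8 h total gave 2 higher and 16 lower, a minimum of 30 UMIs 90 and 154, a minimum of 300 UMIs 0 and 4, and a 1.5-fold threshold 87 and 94. Cd8-marked cells alone gave 1 and 1 of 267 genes, and Cd4-marked cells 0 and 0 of 42. In Cd8-marked cells the log2 ratio turned for Mars (-0.48), Psph (-0.71), Satb1 (0.67), Irf8 (0.25), Traf1 (0.38) and Tnfrsf18 (0.71), and in Cd4-marked cells for Tnfrsf9 (1.17), where few UMIs remain; the cause was not tested. Median-of-ratios scaling put the median of all genes at 0, a shift of 0.09. Gzmb ranged from 2.26 to 2.96 over the settings that keep all cell classes. Beyond these, 1224 recomputed gene ratios, 261 list medians and 197 shares of cells moved by less than their counting interval or the tolerance used, and 97, 25 and 65 moved by more without turning a called difference. The Cd8-marked share was 1.07 percentage points higher at 8 h after thinning to 300 UMIs, 1.93 points without thinning and -0.12 points at 500 UMIs. Leaving out barcodes found in both libraries was not run, since 0 were shared.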
